A study of Mus musculus with 18 samples.

Results

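The genes described here are 37 genes of glycolysis, pyruvate handling and the response to low oxygen, whose messenger RNA was sequenced in sorted CD8 T cells of the mouse spleen. They were taken as a fixed list of symbols, and 38 of the 56748 Ensembl gene IDs in the count files carry these symbols, because Aldoa has 2 IDs. All 37 symbols passed the filter on low counts through 1 ID each, among 13690 genes tested. The second Aldoa ID, with a median of 0.0957 FPKM over all libraries, did not pass it.

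The mice were wild type, and each of 3 diets was represented by 6 libraries. ND mice received normal diet for 12 weeks, HFD mice received high fat diet for 12 weeks, and SW mice received high fat diet for 6 weeks and normal diet for the following 6 weeks. The title of the study concerns the lasting effect of a transient high fat diet on CD8 T cells. Comparing HFD with ND asks what the high fat diet changes, SW with ND what differs after the return to normal diet, and SW with HFD whether the switched and continued diets differ. Strain, age and sex were not known here, nor whether each library came from 1 mouse.

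Glycolysis splits glucose into pyruvate in the cytosol. Pyruvate is then either reduced to lactate, which leaves the cell through monocarboxylate transporters, or taken into mitochondria, where the pyruvate dehydrogenase complex turns it into acetyl-CoA. Kinases of the complex (Pdk) switch it off by phosphorylation and phosphatases (Pdp) switch it on again. When oxygen is low the transcription factor HIF-1 escapes prolyl hydroxylation by the Egln enzymes and degradation through Vhl, and raises many of these genes. Resting T cells use little glucose, and activated CD8 T cells raise glycolysis strongly.

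HIF binds a short DNA core, written here as ACGTG or GCGTG and, on the other strand, CACGT or CACGC. The 250 bases before each RefSeq gene start (GRCm38.p6) were searched for these letters, which overlap with the E-box CACGTG bound by other factors such as Myc. Of the 37 genes, 35 had a listed start, with 49 starts in all, and 39 of the 49 starts (79.6%) held at least 1 match. Over all 32851 listed starts the share was 38.6%. The starts of the 35 genes were richer in G and C, at 61.9% against 53.2% over all starts, and the part of base composition in the difference was not tested. The other two genes, Slc2a3 and Pdp1, had no listed start. The windows below belong to Pdp2, the gene that passed the test, to Ldhb, which came closest to it, to Ldha, the sister gene of Ldhb, and to Ankrd37, a HIF target. The matches are in capitals. They are at chr8:104591222-104591471 on the plus strand for Pdp2, chr6:142507958-142508207 on the minus strand for Ldhb, chr7:46845554-46845803 on the plus strand for Ldha and chr8:45999851-46000100 on the minus strand for Ankrd37.
Pdp2: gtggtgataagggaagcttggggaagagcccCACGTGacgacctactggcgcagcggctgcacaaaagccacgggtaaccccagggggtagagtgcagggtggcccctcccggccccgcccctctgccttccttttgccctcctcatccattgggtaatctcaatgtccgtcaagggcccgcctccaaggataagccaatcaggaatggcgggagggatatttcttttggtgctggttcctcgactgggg
Ldhb: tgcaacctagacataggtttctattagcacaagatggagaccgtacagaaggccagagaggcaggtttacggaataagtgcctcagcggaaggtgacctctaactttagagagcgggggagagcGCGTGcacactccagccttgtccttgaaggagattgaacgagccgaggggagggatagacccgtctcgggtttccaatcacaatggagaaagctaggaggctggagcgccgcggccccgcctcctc
Ldha: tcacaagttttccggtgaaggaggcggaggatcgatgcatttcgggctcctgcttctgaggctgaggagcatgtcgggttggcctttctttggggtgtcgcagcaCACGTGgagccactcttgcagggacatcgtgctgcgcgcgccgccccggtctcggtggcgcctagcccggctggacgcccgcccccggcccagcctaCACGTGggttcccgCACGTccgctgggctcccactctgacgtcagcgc
Ankrd37: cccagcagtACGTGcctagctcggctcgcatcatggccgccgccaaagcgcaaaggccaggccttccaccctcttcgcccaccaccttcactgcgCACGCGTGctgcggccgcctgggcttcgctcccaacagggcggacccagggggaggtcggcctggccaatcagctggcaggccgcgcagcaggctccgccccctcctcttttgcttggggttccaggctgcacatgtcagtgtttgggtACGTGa
The Pdp2 window held 1 E-box, which is read as a match on both strands, 219 bases before the start. The Ldhb window held a single match 126 bases before the start. In the Ldha window shown there were 5 matches, of which 4 lay in a pair of E-boxes and the other stood alone. Ldha has another listed start, whose window at chr7:46846832-46847081 held 1 match, CACGC, 59 bases before the start. In the window of Ankrd37 4 matches were found. A match describes the letters only, and no binding was measured here.

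Total counts ran from 11947339 to 16398340 per library. Cd8a, a chain of the CD8 co-receptor, lay between 1369 and 1635 CPM (normalised counts, scaled to library size as edgeR computes them) in all libraries, and Cd4 between 0.0801 and 1.32 CPM. The summed level of 8 CD8 T cell markers was 5918 to 6504 CPM in ND, 5950 to 6343 in SW and 5843 to 6605 in HFD. The 15 effector and memory genes summed to 802 to 956 CPM in ND, 826 to 1179 in SW and 1089 to 1401 in HFD, so that all HFD libraries were above all ND libraries. In the edgeR test described below, at an adjusted p under 0.05, 8 of these 15 genes rose in HFD against ND, where 0.665% of all tested genes did. The list was chosen with earlier results of these data known, so this share is no independent support. The 11 myeloid markers summed to 19.2 to 28.9 CPM in ND, 18.02 to 30.95 in SW and 28.1 to 36.8 in HFD, and the 9 B cell markers to 481 to 534, 506 to 618 and 525 to 682, with overlap between the diets in both sums. Ighm made up most of the B cell sum, at 451 to 644 CPM. Erythroid markers were highest in HFD replicate 4, at 348 CPM, against 18.6 to 46.0 in ND. Lower RNA per cell and fewer cells of a type cannot be told apart in these bulk samples, and the part of the cell mixture in the results below was not tested.

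Across genes, levels are given as deposited FPKM, which divide counts by gene length and library size. The highest levels were those of Ldha (median 158 FPKM over 18 libraries), which reduces pyruvate to lactate, Aldoa (136), which splits fructose bisphosphate, Eno1 (111), the enolase, Pkm (101.4), the pyruvate kinase, Pgk1 (83.0), the first ATP-forming enzyme, and Gpi1 (68.1), the glucose phosphate isomerase. Ldha was above 98.0% of all tested genes by FPKM. At the lower end stood Aldoc, an aldolase best known from brain, at 0.324 FPKM, the lactate exporter Slc16a3 at 0.378 and the inducible hexokinase Hk2 at 0.935. Levels of the same gene in the 3 diets lay close together on this scale, as the plot of levels shows.

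**Figure D1:**
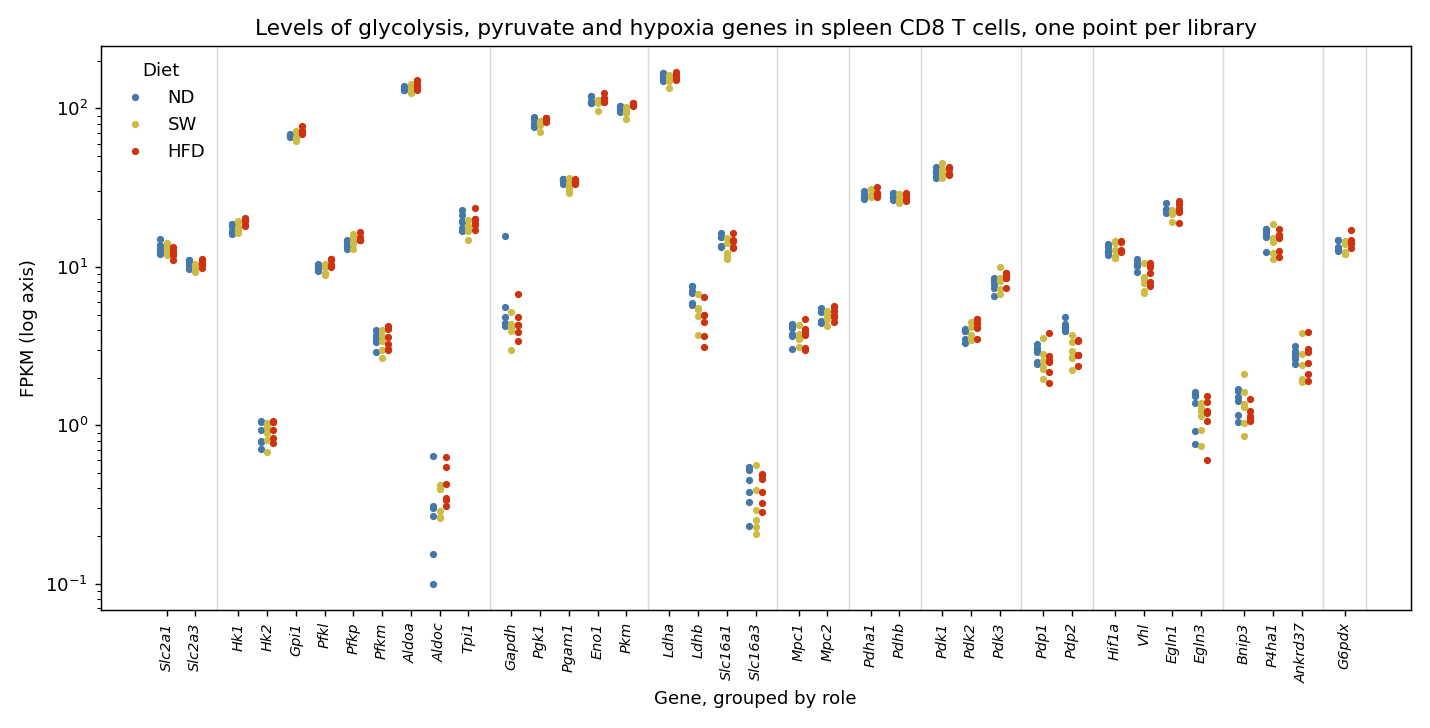
FPKM of the 37 genes (log axis) in each of the 18 libraries, coloured by diet and grouped by role from glucose uptake on the left to the pentose phosphate pathway on the right. Ldha, Aldoa, Eno1 and Pkm have medians above 100 FPKM, and the 3 diets overlap for nearly all genes.

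Among the listed genes, most enzyme families were carried by 1 gene. Shares were taken over the listed genes of each family only. Hk1, the hexokinase of most tissues, held 95.2% ± 0.820 (SD, n = 6) of the FPKM of Hk1 and Hk2 in ND, 95.2% ± 0.660 in SW and 95.3% ± 0.584 in HFD. Hk3, which was not on the list, had a median of 1.85 FPKM over all libraries, against 0.935 for Hk2. Aldoa held 99.8% ± 0.142 of aldolase FPKM in ND, and Slc16a1, the monocarboxylate transporter known as MCT1, held 97.3% ± 0.830 of its pair. Egln1, a HIF prolyl hydroxylase, held 94.7% ± 1.33 of its pair with Egln3, a hydroxylase that HIF itself induces. Egln2, a further HIF prolyl hydroxylase that was not on the list, had a median of 26.0 FPKM over all libraries, above the 22.5 of Egln1. Pdk1, a HIF target that switches pyruvate dehydrogenase off, held 77.2% ± 2.29 of kinase FPKM in ND, followed by Pdk3 with 15.3% ± 1.65 and Pdk2 with 7.46% ± 0.714. For each share given here, the means in SW and in HFD were within 1 ND SD of the ND mean.

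In 3 families the genes were nearer to each other. Platelet-type Pfkp held 51.0% ± 0.945 of phosphofructokinase FPKM in ND, liver-type Pfkl 36.2% ± 1.23 and muscle-type Pfkm 12.8% ± 1.31. The FPKM imply a length of 12925 bases for Pfkp, whose longest coding transcript has 4145, and by raw counts Pfkp held 70.6% and Pfkm 4.43%. The glucose transporters Slc2a1 (GLUT1) and Slc2a3 (GLUT3) held 55.7% ± 1.72 and 44.3% ± 1.72 in ND. Their order too rests on the lengths behind the deposited FPKM. The FPKM imply a length of 6988 bases for Slc2a3, whose longest annotated coding transcript has 3959, and by raw counts Slc2a1 held 37.8%. Likewise Mpc1 and Mpc2, the subunits of the mitochondrial pyruvate carrier, held 43.9% ± 5.10 and 56.1% ± 5.10 by FPKM, and Mpc1 held 18.3% by counts.

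Of the lactate dehydrogenase pair, Ldha held 95.9% ± 0.456 of FPKM in ND, 96.6% ± 0.648 in SW and 97.2% ± 0.786 in HFD. Pdp2 held 59.7% ± 2.28 of phosphatase FPKM in ND, against 53.3% ± 3.94 in SW and 53.2% ± 4.37 in HFD. Pdp1 had the rest.

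**Figure D2:**
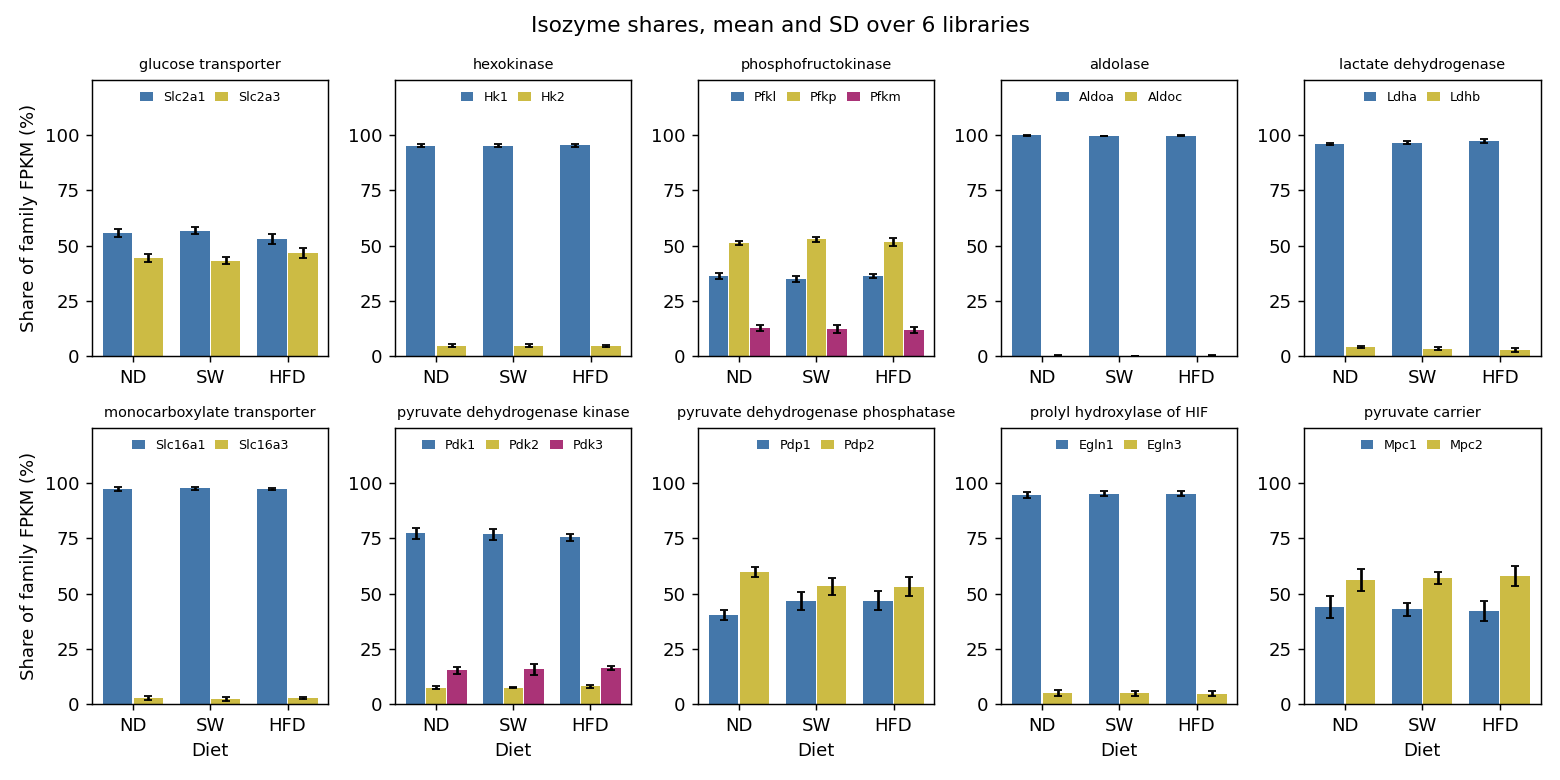
Share of each gene in the summed FPKM of the listed genes of its enzyme family, with bars for the mean and whiskers for the SD over 6 libraries per diet. Genes not on the list, such as Hk3, Egln2 and Slc16a6, are left out. Hk1, Aldoa, Ldha, Slc16a1 and Egln1 hold over 90% of the FPKM of their listed genes on each diet. The share of Pdp2 is 59.7% in ND and near 53% in SW and HFD.

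Several of these genes have near-identical copies elsewhere in the genome, which bears on how far their counts can be read. Of the 50-base windows in the longest coding transcript of Gapdh, the dehydrogenase in the middle of the pathway, 82.5% occurred exactly in transcripts of 222 other annotated genes, and the closest copies were processed pseudogenes. Gapdh had a median of only 4.32 FPKM, next to 83.0 for Pgk1, the following enzyme. Whether reads that fit several genes were dropped or split is not stated, so the level of Gapdh is uncertain. For Eno1 the share was 72.2%, for Pgk1 68.0%, for the mitophagy receptor Bnip3 62.4% and for Pgam1 41.5%. In all, 16 of the 38 IDs had a share above 10%. Mpc1 shared 29.6%, of which 23.2% was with the processed pseudogene Mpc1-ps. That copy had a median of 10.2 CPM against 7.57 for Mpc1, so the level of Mpc1 is uncertain too. Gpi1 shared 25.3%, and Pfkp shared 17.1% with the antisense gene Pitrm1, at a median of 60.1 CPM. No window of 16 of the 38 IDs was shared, among them those of Vhl, Slc16a1, Pdk1 and Hk2, and for Pdp2 the share was 0.0709%. For Ldhb it was 27.0%, with 1 other gene, which had at most 0.244 CPM in any library. G6pdx lies with its whole locus of 19712 bases, introns included, within the span of the antisense gene Ikbkg. Of the windows of the G6pdx transcript, 3.19% also occurred in Ikbkg transcripts, and reads from those cannot be assigned without a stated strand.

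**Figure D3:**
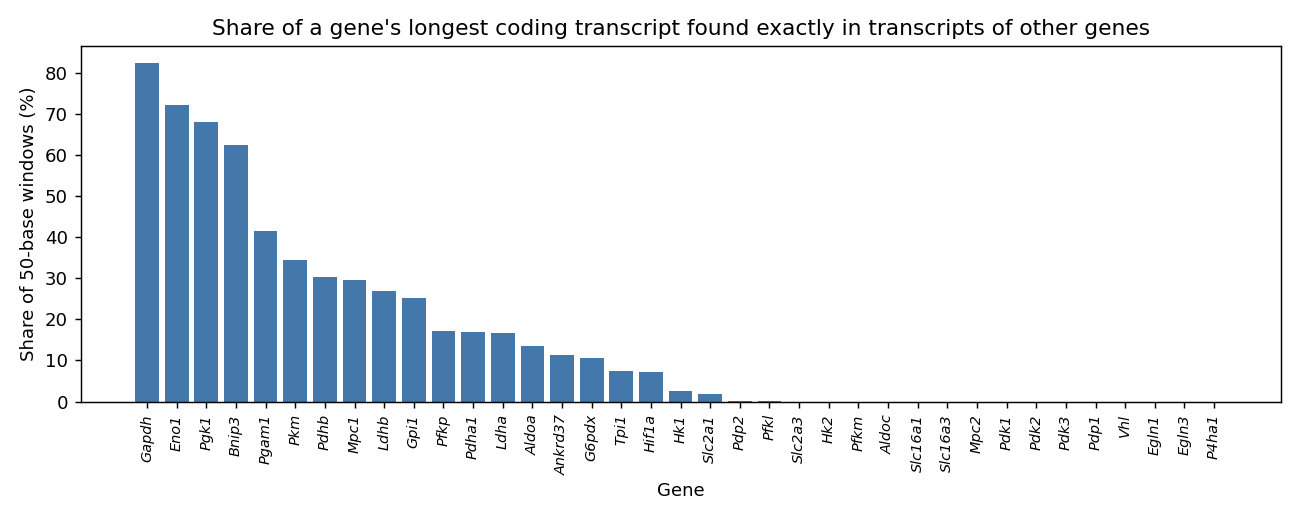
Share of 50-base windows of each gene's longest coding transcript that occur exactly in annotated transcripts of other genes. Gapdh (82.5%), Eno1 (72.2%), Pgk1 (68.0%) and Bnip3 (62.4%) exceed 50%, and Pdp2 and Vhl are at or near 0.

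Differences between diets were tested with the edgeR quasi-likelihood test, and a gene counts as called where its p, adjusted by Benjamini-Hochberg over all tested genes, was under 0.05. Fold changes are log2 values, given with their standard error (SE). The comparisons share libraries, so those in which a diet recurs are not independent of each other.

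In HFD against ND, 1 of the 37 genes was called. It was Pdp2, and it fell. Among all tested genes 1.62% were called in this comparison, 0.957% with lower and 0.665% with higher levels. At an unadjusted p under 0.05 there were 4 of the 37 genes (10.8%), against 14.9% of all tested genes. This number was 2 without ND replicate 4 and 7 without HFD replicate 1. Fold changes were above 0 for 20 genes and below 0 for 17, with a median of 0.004, against 0.008 over all tested genes. The 95% interval of the log2 fold change lay within 0.5 of 0 in either direction, a change of up to 1.41-fold, for 30 of the 37 genes (81.1%), against 67.3% of all tested genes.

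In SW against ND none of the 37 genes was called by edgeR, against 0.0146% of all tested genes (0.0073% higher and 0.0073% lower). At an unadjusted p under 0.05 there were 5 (13.5%, against 6.81%), all with lower levels in SW. DESeq2 called 1 of the 37, Pdp2, and 52 of the 13690 tested genes, where edgeR called 2. Fold changes were below 0 for 30 of the 37 genes, and the median was -0.066 against 0.002 over all tested genes. The interval was within 0.5 of 0 for 29 genes (78.4%, against 69.3%).

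In SW against HFD edgeR again called none, against 0.124% of all tested genes (0.0584% higher and 0.0657% lower). DESeq2 called 1 of the 37, Pkm, and 110 of the 13690 tested genes, where edgeR called 17. An unadjusted p under 0.05 was found for 9 of the 37 genes (24.3%, against 11.1%), all lower in SW. When 1 library was left out at a time, this number of 9 became 4 to 8, with 4 without SW replicate 4 or SW replicate 5 and 5 without SW replicate 6. Fold changes were below 0 for 32 of the 37 genes, with a median of -0.076 against -0.004 over all tested genes. The interval was within 0.5 of 0 for 30 genes (81.1%, against 67.9%). The test for any difference among the 3 diets called only Pdp2 among the 37 (adjusted p = 0.00972), against 0.898% of all tested genes.

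**Figure D4:**
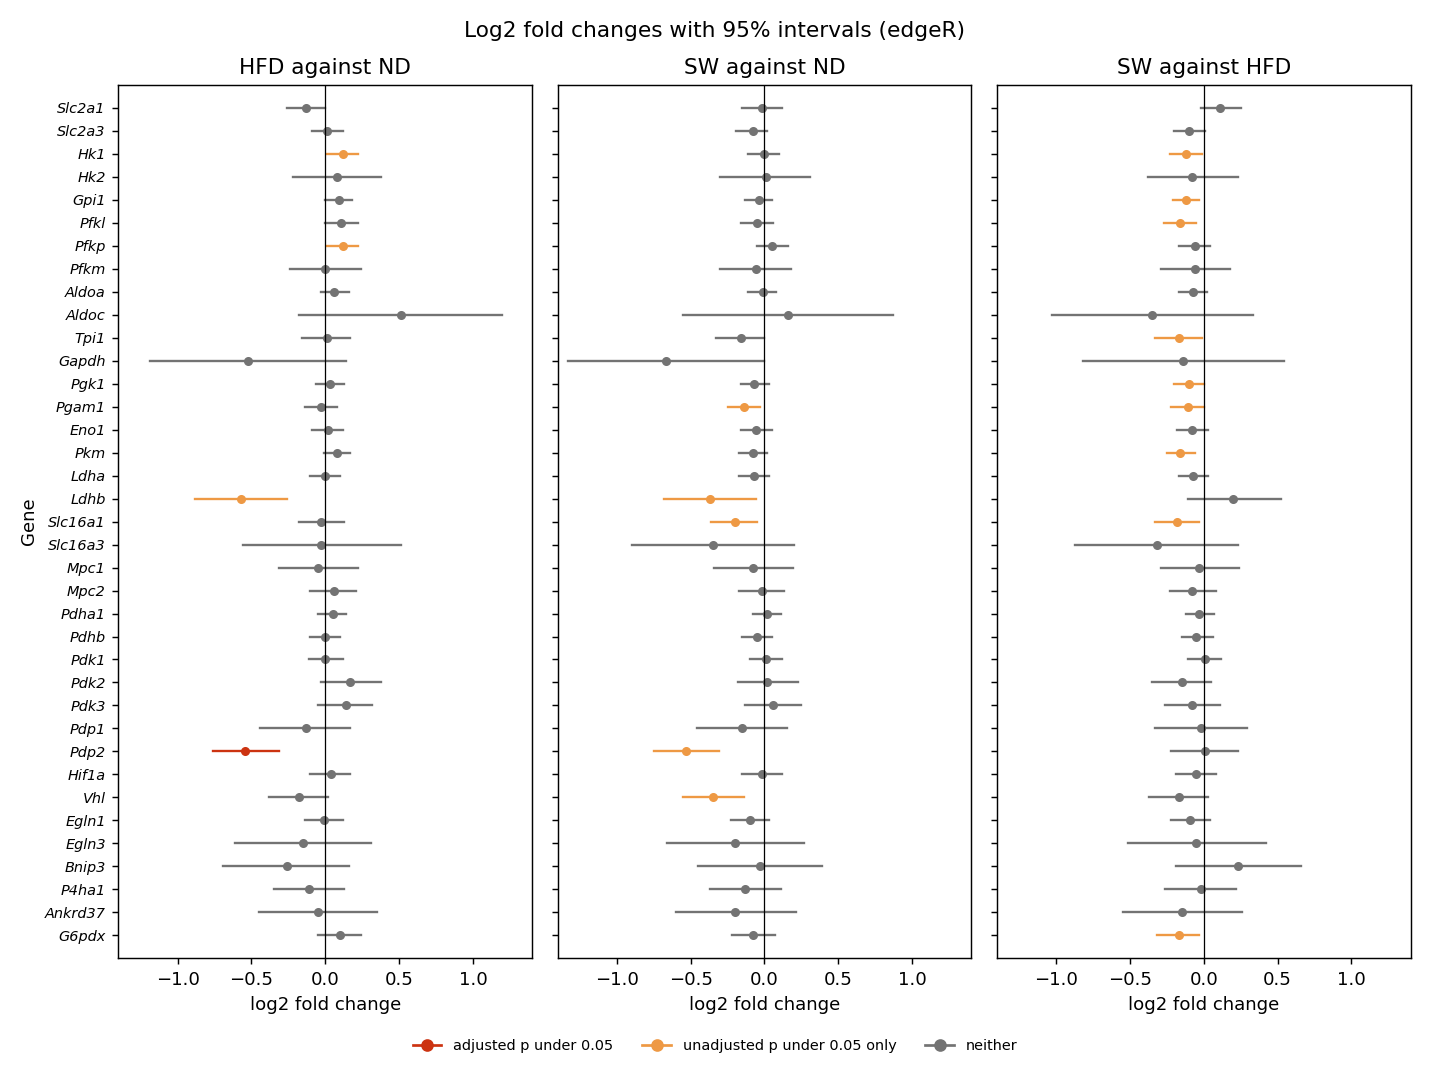
Log2 fold changes of the 37 genes (points) with 95% intervals (lines) in HFD against ND, SW against ND and SW against HFD. Pdp2 is the only gene with an adjusted p under 0.05, in HFD against ND. In SW against HFD all 14 enzymes from Hk1 to Pkm lie below 0.

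Pdp2 encodes the catalytic subunit of a pyruvate dehydrogenase phosphatase, which reactivates the complex. Its gene is at chr8:104591451-104599026 on GRCm38. It was between 21.7 and 26.8 CPM in the ND libraries (median 22.9), 12.2 and 20.4 in SW (median 15.6), and 13.0 and 19.0 in HFD (median 15.4). All 6 HFD and all 6 SW libraries were below the lowest ND library, while HFD and SW overlapped over most of their range. Pdp2 fell by 31.0% in HFD against ND, a log2 fold change of -0.54 ± 0.11 (SE, edgeR adjusted p = 0.0103). Non-overlap of the 6 libraries of each diet, seen here, was found for 1.67% of all tested genes in HFD against ND and for 0.716% in SW against ND.

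In SW against ND the Pdp2 difference was of the same size, -0.53 ± 0.11, and did not pass the test (edgeR adjusted p = 0.0704). It was called under 6 of 13 other settings, with adjusted p-values from 0.00231 to 0.984, the highest with only replicates 1 and 2. DESeq2, with an adjusted p of 0.00392, was among those that called it. Of the 18 fits that left out 1 library, 2 called it, those without SW replicate 1 and without HFD replicate 1, and the adjusted p-values of all 18 ran from 0.0231 to 0.246. Between SW and HFD the difference was 0.01 ± 0.11, with an interval from -0.22 to 0.23. Lower values in both diets were also seen within replicates 3 to 6 (-0.59 for HFD and -0.64 for SW against ND) and within replicates 1 and 2 (-0.43 and -0.33), groups of replicate numbers that earlier results of these data had shown to differ across many genes. In HFD against ND, Pdp2 was called in each of the 18 fits that left out 1 library, with adjusted p-values between 0.00387 and 0.0365. The difference without HFD replicates 1 and 4, the 2 HFD libraries highest in erythroid markers, was also called.

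Pdp1, the other phosphatase gene, had medians of 12.9 CPM in ND, 10.7 in SW and 11.1 in HFD, with overlapping libraries. Its log2 fold changes of -0.13 ± 0.15 and -0.15 ± 0.15 against ND were about the size of their errors. The kinases, which act against the phosphatases, did not pass any test. Pdk1 was at 0.00 ± 0.06 in HFD against ND with an interval from -0.11 to 0.12, Pdk2 at 0.17 ± 0.10 and Pdk3 at 0.14 ± 0.09. Pdha1 and Pdhb, subunits of the E1 enzyme on which both act, had intervals from -0.05 to 0.14 and from -0.10 to 0.10. For the pyruvate carrier the intervals were -0.31 to 0.22 for Mpc1 and -0.10 to 0.21 for Mpc2.

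Of the lactate genes, Ldhb came closest to a call. It encodes the dehydrogenase subunit that favours the turning of lactate into pyruvate. It was at 8.65 to 11.6 CPM in ND (median 10.7), 5.55 to 10.2 in SW (median 8.23) and 4.76 to 9.71 in HFD (median 7.14). The HFD libraries were all below the ND mean, and HFD replicate 1 alone reached into the ND range. The log2 fold change in HFD against ND was -0.57 ± 0.15 (edgeR adjusted p = 0.0502). It was called under 7 of 13 other settings, and in 4 of 18 fits without 1 library, among them the fit without HFD replicate 1 (-0.70, adjusted p = 0.0106). In SW against ND the value was -0.37 ± 0.15, which was not called, and between SW and HFD 0.20 ± 0.15 with an interval from -0.11 to 0.52.

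Ldha, by contrast, was at 0.00 ± 0.05 in HFD against ND, with an interval from -0.10 to 0.10, and at -0.07 ± 0.05 in SW against ND. Slc16a1 had 57.5 to 70.2 CPM in ND, 48.0 to 65.2 in SW and 56.5 to 69.9 in HFD, and 4 of the 6 SW libraries were below all ND libraries. Its value in SW against ND was -0.20 ± 0.07 (edgeR adjusted p = 0.505). Slc16a3 was low everywhere, at 1.06 to 2.89 CPM.

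**Figure D5:**
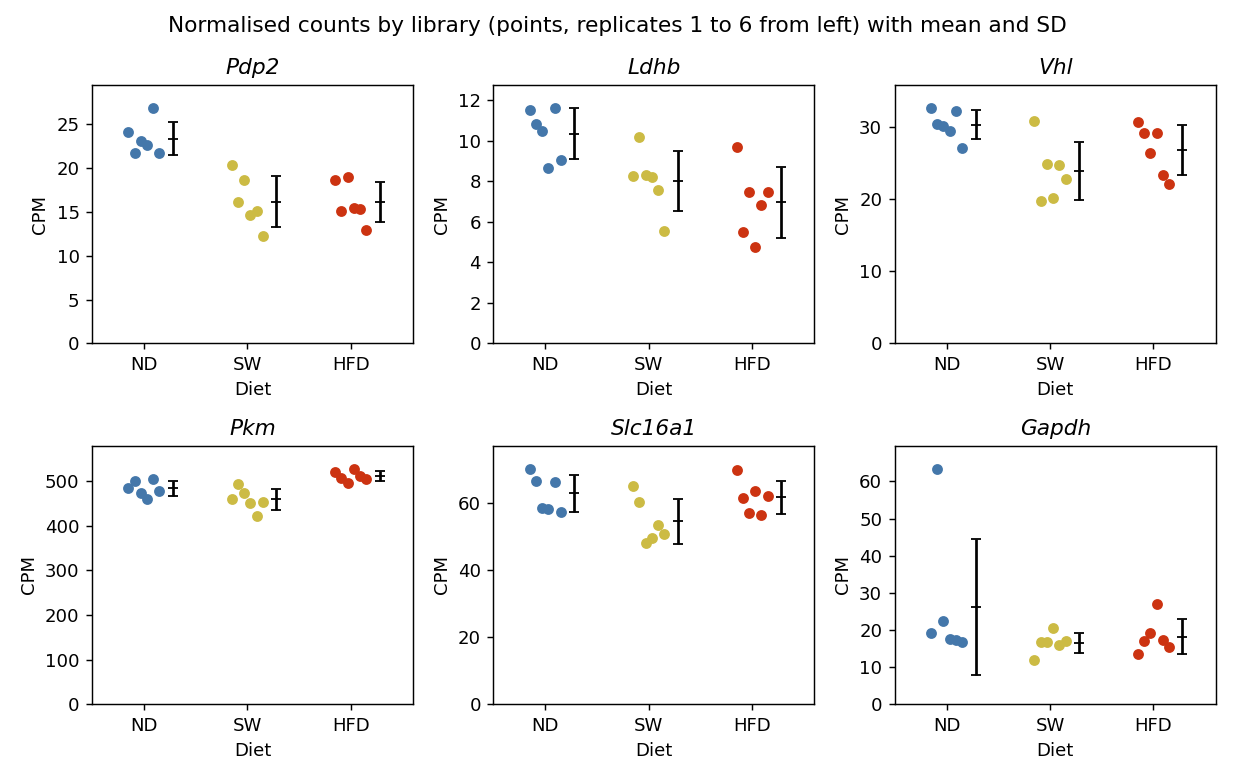
Normalised counts (CPM, axis from 0) of Pdp2, Ldhb, Vhl, Pkm, Slc16a1 and Gapdh in each library, with mean and SD per diet at the right of each group. All SW and HFD points of Pdp2 lie below the ND points, all HFD points of Pkm lie above the SW points, and 1 ND library has 63.3 CPM of Gapdh.

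The 14 glycolytic enzymes tested from hexokinase to pyruvate kinase had no called gene in any comparison. In SW against HFD all 14 had fold changes below 0, from -0.35 to -0.06, with a median of -0.114 against -0.004 over all tested genes, and 7 (50%, against 11.1% of all tested genes) had an unadjusted p under 0.05. That number of 7 depended on single libraries and on the setting. It was 3 without SW replicate 4, SW replicate 5, HFD replicate 1 or HFD replicate 3, and 4 without ND replicate 1, 4 or 6, SW replicate 6, or HFD replicate 2 or 4. Other settings gave 0 to 7, with 0 for only replicates 1 and 2 and 3 with library size only. In HFD against ND 11 were above 0 (median 0.072), and in SW against ND 11 were below 0 (median -0.054). In other settings for SW against HFD, 12 to 15 enzymes were below 0, the highest where Aldoa counts with both of its IDs, and without the 2 HFD libraries highest in erythroid markers 14 were below 0 with a median of -0.094. Members of a pathway are not independent of each other, and no test was made of the list as a whole. With no gene of these lists called, all 12 proliferation genes (median -0.332) and 14 of 15 effector and memory genes (median -0.477) were below 0 in SW against HFD, as were all 11 genes of heat shock and sample handling (median -0.211). The part of these lists in the values of the enzymes was not tested.

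Pkm had the smallest p of these enzymes. It was at 459 to 504 CPM in ND (median 481), 422 to 493 in SW (median 455) and 496 to 526 in HFD (median 509). All 6 SW libraries were below all 6 HFD libraries, by a gap between 493.4 and 495.7 CPM, and ND overlapped both. In SW against HFD, 0.782% of all tested genes showed such a lack of overlap. The log2 fold change was -0.16 ± 0.04 (edgeR adjusted p = 0.169), or -10.2%.

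Pfkl, the liver-type phosphofructokinase at the committed step, was at 61.2 to 66.8 CPM in ND, 56.9 to 67.5 in SW and 65.2 to 72.4 in HFD. Its value in SW against HFD was -0.16 ± 0.05 (adjusted p = 0.256). Gpi1 was at 411 to 429 CPM in ND, 395 to 444 in SW and 427 to 484 in HFD, with -0.12 ± 0.04 in SW against HFD (adjusted p = 0.277). For each gene all HFD libraries were above the SW mean and 1 SW library reached into the HFD range. Hk1 was at 134 to 156 CPM in ND, 134 to 160 in SW and 150 to 167 in HFD, and its value was -0.12 ± 0.05 in SW against HFD and 0.12 ± 0.05 in HFD against ND (adjusted p = 0.396 and 0.299).

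Pfkp was at 169 to 193 CPM in ND, 167 to 206 in SW and 190 to 212 in HFD, and differed by 0.12 ± 0.05 between HFD and ND (edgeR adjusted p = 0.279). The triose phosphate isomerase Tpi1 had 44.9 to 60.9 CPM in ND, 40.1 to 52.7 in SW and 45.7 to 62.4 in HFD, and -0.17 ± 0.08 in SW against HFD (adjusted p = 0.434). Pgk1 had 166 to 193 CPM in ND, 157 to 181 in SW and 178 to 189 in HFD (-0.10 ± 0.05 in SW against HFD, adjusted p = 0.429). The mutase Pgam1 had 63.5 to 69.3 CPM in ND, 56.7 to 68.5 in SW and 63.6 to 68.3 in HFD (-0.14 ± 0.05 in SW against ND, adjusted p = 0.558). In none of these 4 genes were 2 diets apart in all libraries.

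The remaining enzymes of the pathway were Hk2, Pfkm, Aldoa, Aldoc, Eno1 and Gapdh, with no unadjusted p under 0.05. The interval for Aldoa was -0.03 to 0.16 and that for Eno1 -0.09 to 0.12 in HFD against ND. For Hk2, at 3.89 to 6.15 CPM, the interval was -0.22 to 0.38, and for Aldoc, at 0.315 to 2.00 CPM, it was -0.18 to 1.20, so that at this depth only larger changes could have been seen. G6pdx, which opens the pentose phosphate pathway, was at 37.4 to 44.0 CPM in ND, 35.7 to 43.3 in SW and 38.7 to 51.0 in HFD, with -0.17 ± 0.07 in SW against HFD (edgeR adjusted p = 0.350). The glucose transporters were at -0.13 ± 0.07 (Slc2a1) and 0.01 ± 0.05 (Slc2a3) in HFD against ND.

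Among HIF and its regulators, Vhl, the part of the ubiquitin ligase that recognises hydroxylated HIF, stood out by p. It was at 27.1 to 32.6 CPM in ND (median 30.3), 19.8 to 30.9 in SW (median 23.8) and 22.1 to 30.7 in HFD (median 27.8). All SW libraries but replicate 1, at 30.9, were below all ND libraries. The log2 fold change in SW against ND was -0.35 ± 0.10 (edgeR adjusted p = 0.266), in HFD against ND -0.18 ± 0.10 (adjusted p = 0.398) and in SW against HFD -0.17 ± 0.10 (adjusted p = 0.534). Without SW replicate 1 the first became -0.43 (adjusted p = 0.0607). Hif1a itself, the oxygen-regulated subunit, had 64.5 to 82.8 CPM over all libraries and intervals of -0.10 to 0.17 in HFD against ND and -0.15 to 0.12 in SW against ND. Egln1 had intervals of -0.14 to 0.12 and -0.23 to 0.03, and Egln3, at 1.57 to 4.18 CPM, of -0.61 to 0.31 and -0.66 to 0.27.

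The 3 HIF targets outside glycolysis were not called. P4ha1, a collagen prolyl hydroxylase subunit, was at 44.4 to 74.2 CPM, Ankrd37 at 2.78 to 5.75 and Bnip3 at 1.89 to 4.63. Their log2 fold changes in HFD against ND were -0.11 ± 0.11, -0.05 ± 0.19 and -0.26 ± 0.21, and in SW against ND -0.13 ± 0.12, -0.20 ± 0.20 and -0.03 ± 0.20.

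Of 110 further genes of sugar transport, glycolysis, the pentose phosphate pathway, pyruvate handling, the HIF pathway and sugar sensing, 81 were tested. In HFD against ND 3 of the 81 (3.7%, against 1.62% of all tested genes) were called, of which 2 rose (0.665% of all tested genes) and 1 fell (0.957%). Bhlhe40, a repressor induced by HIF and by T cell activation, was at 2.07 to 5.50 CPM in ND (median 3.54), 2.89 to 4.99 in SW (median 3.55) and 6.01 to 13.0 in HFD (median 6.42). All HFD libraries were above all ND and all SW libraries. Such a lack of overlap was found for 1.67% of all tested genes in HFD against ND and for 0.782% in SW against HFD. Bhlhe40 rose by 0.98 ± 0.22 in HFD against ND (edgeR adjusted p = 0.0213). The rise was 1.54 with only replicates 1 and 2 and 0.66 with only replicates 3 to 6, called in neither (edgeR adjusted p = 0.165 and 0.157). The value in SW against HFD was -1.01 ± 0.22 (adjusted p = 0.0525), which was called under 4 of 13 other settings. It was -1.76 and -0.61 in the 2 sets of replicates. Without HFD replicate 2, at 13.0 CPM, the rise against ND was 0.75 and was not called, and it was also not called without ND replicate 5 or ND replicate 6.

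Txnip, which encodes a protein that lowers glucose uptake and is induced by sugar through Mondo and Mlx, was at 702 to 890 CPM in ND (median 828), 890 to 1178 in SW (median 1018) and 659 to 1690 in HFD (median 1447). HFD replicate 1, at 659 CPM, was below all ND libraries and the other five HFD libraries were above all SW libraries. Txnip rose by 0.73 ± 0.17 in HFD against ND (edgeR adjusted p = 0.0393), with 0.86 without HFD replicate 1 (adjusted p = 8.46e-07), and it was not called in 12 of 18 fits that left out 1 library. In SW against ND the difference was 0.31 ± 0.16 (adjusted p = 0.798), although the highest ND library, at 889.6 CPM, was just below the lowest SW library, at 889.8. Mlx fell by 0.23 ± 0.06 in HFD against ND (adjusted p = 0.0428), from a median of 52.4 CPM in ND to 45.3, with 46.3 in SW. Leaving out 1 library at a time kept the call of Mlx in 10 of 18 fits.

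None of the 81 genes was called by edgeR in SW against ND or in SW against HFD, and DESeq2 called 0 and 1. Over all 13690 tested genes DESeq2 called 52 and 110 in these comparisons. At an unadjusted p under 0.05 there were 3 in SW against ND (3.7%, against 6.81% of all tested genes), and 1 without ND replicate 4, ND replicate 5 or SW replicate 5. There were 14 in SW against HFD (17.3%, against 11.1%). The next genes by p were Irf4, a transcription factor of T cell activation (0.58 ± 0.17 in HFD against ND, edgeR adjusted p = 0.0756), Tigar, a fructose bisphosphatase that slows glycolysis (-0.30 ± 0.09, adjusted p = 0.0784), and Bpgm, the bisphosphoglycerate mutase (0.23 ± 0.08, adjusted p = 0.160). In SW against HFD they were Prps1, a phosphoribosyl pyrophosphate synthetase (-0.21 ± 0.07), Cul2, the scaffold of the Vhl ligase (-0.19 ± 0.06), and Rptor, a subunit of mTORC1 (-0.21 ± 0.07), with adjusted p-values of 0.233, 0.244 and 0.269.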

How the data were processed

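RNA-seq was analysed in 18 libraries of mouse spleen CD8 T cells, 6 per diet, grouped by the titles. Per the labels' protocols, messenger RNA was selected with poly-T beads. The authors deposited raw counts per gene and FPKM values for each library. Per the submitters' processing notes, the reads were handled with fastp on GRCm38 (mm10). For the aligner, counting tool and strand setting the sources used here give nothing. FPKM equalled counts times a factor per gene and per library for the 9534 genes with over 50 counts in every library. Symbols are from GENCODE M21 and promoter windows from RefSeq.

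Counts were tested with edgeR 4.0.16 (R 4.3.3, TMM, filterByExpr, robust quasi-likelihood F test, 1 fit of all libraries by diet), adjusted over 13690 genes. The steps were tested on simulated data. Alternatives used DESeq2 1.42.0, limma 3.58.1 on log2(FPKM + 0.1 or 1), other scalings, filters and designs, and each library left out. The labels do not say that libraries came from separate mice, so the spread behind the p-values is that between samples and may be technical. The genes and lists were chosen with earlier results of these data known. Named genes are those called, 12 further members and 6 further pathway genes by smallest p.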

Additional observations from a re-analysis of the deposited data

Results flagged for a closer look

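In 3 of 111 groups of 6 libraries, 1 library lay far from the others of its diet for one of the 37 genes. The gap to its nearest neighbour, as a share of the whole range, was above Dixon's 95% critical value, which chance passes in about 1 in 20 groups. Gapdh was at 63.29 CPM in ND replicate 2, against 16.89 to 22.36 in the other ND libraries. Gpi1 was at 443.6 CPM in SW replicate 6, against 394.9 to 411.3 in the other SW libraries. P4ha1 was at 49.29 CPM in ND replicate 4, below the 62.03 to 69.08 of the other ND libraries.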

How the results depend on the processing

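In the comparisons for which genes were named, no fold change turned in sign under the settings tried, and 734 of 806 values stayed on their side of the threshold. Most of these genes were followed only in the comparison where their own p was smallest, a choice that itself favours stable signs. Among all 14 enzymes, 12 were below 0 in SW against HFD with only replicates 3 to 6, against 14 in the main fit. In HFD against ND the number of the 37 genes called rose from 1 to 2 with DESeq2, library size only, no filter, at least 10 counts in every library, the replicate block, replicates 1 and 2 against 3 to 6 as a factor, or without the 2 HFD libraries highest in erythroid markers, an alternative chosen after seeing the data, and was 0 with only replicates 1 and 2. In SW against ND it rose from 0 to 1 with DESeq2, no filter, the replicate block, the replicate factor, a fit of only the 2 diets, and without those 2 libraries, HFD replicates 1 and 4. In SW against HFD it rose from 0 to 1 with DESeq2 and the replicate factor. For any of the 3 diets it went from 1 to 3 (DESeq2), 2 (no filter), 4 (replicate block and replicate factor) and 0 (only replicates 1 and 2). Over all tested genes that test called 123. It called 427 with DESeq2, 216 with no filter, 469 with the block, 444 with the factor and 5 with only replicates 1 and 2. Leaving out 1 library gave 1 to 2, 0 to 1, 0 to 0 and 1 to 2 called genes in these 4 tests.

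Of the further pathway genes, HFD against ND called 3, and 5 with DESeq2, 6 with the replicate block or factor, 1 with only replicates 3 to 6 or only the 2 diets, 0 with only replicates 1 and 2. SW against HFD called 0, and 2 with the replicate block and 1 with DESeq2, no filter, the replicate factor, only replicates 3 to 6, or without the 2 HFD libraries. For any diet it was 1, and 3 with DESeq2, 4 with the block or factor, 2 without the 2 HFD libraries, and 0 with FPKM or only replicates 1 and 2. Without 1 library the ranges were 0 to 4 for HFD against ND, 0 to 0 for SW against ND, 0 to 2 for SW against HFD and 0 to 2 for any diet. Over all genes, the count called in HFD against ND was 222, with 471 by DESeq2, 598 with the block and 535 with the factor. In SW against ND it was 2, with 52, 49 and 22 in the same order. In SW against HFD it was 17, with 110, 138 and 116. The named settings under which the counts of the listed genes rose also called more genes over all. With the mean of each diet taken out, same-numbered libraries of different diets correlated by -0.0315 to 0.219 and different-numbered ones by -0.188 to 0.168. Of 18 libraries, 5 correlated best with their own number. Of the 18 same-numbered pairs, 7 had a correlation over 0.1. These values do not decide whether same-numbered libraries were paired, and the numbers were not used as a block in the main test. Pairs within replicates 1 and 2 correlated by 0.0522 to 0.219, and this grouping was not in the main test either. With it as a factor, edgeR called Pdp2 in SW against ND (adjusted p = 0.0283) and Pkm in SW against HFD (adjusted p = 0.0464). With the replicate block the adjusted p was 0.00389 for Pdp2 in SW against ND and 0.0113 for Bhlhe40 in SW against HFD, both then called, as were Ldhb, Irf4 and Tigar in HFD against ND and Rptor in SW against HFD. Isozyme shares from raw counts in place of FPKM moved beyond 1 SD in most cases, since genes differ in length. Depth limits the low genes: Aldoc was counted at 0.315 to 2.00 CPM, with an interval of -0.18 to 1.20 in HFD against ND.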
